A study of Homo sapiens with 8 samples.

Results

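The EGR, NR4A and IER genes are immediate early genes, which growth factors and stress switch on within minutes without new protein synthesis. The group was set by symbol as 10 genes, EGR1 to EGR4, NR4A1 to NR4A3, IER2, IER3 and IER5, of the 58688 genes counted, and all 10 were matched to an Ensembl gene. The cells, LM2, were derived from the human triple-negative breast cancer line MDA-MB-231 and spread to lung. RNA was sequenced in 8 samples, 2 of LM2 cells in DMSO, 2 of LM2 cells in 1 µmol/L Ponatinib for 6 h, and 1 each of LM2 cells carrying lentiviral scrambled shRNA (shCtrl), ABL1 shRNA, ABL2 shRNA or both ABL shRNAs. Ponatinib is an inhibitor of several tyrosine kinases, ABL among them, and shRNAs are hairpin RNAs that direct the breakdown of a matching mRNA. The comparisons ask how the drug and loss of ABL act on the transcriptome of these cells. Nothing states that the repeats were separate cultures, so p-values measure only the spread between these samples, which may be technical.

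Reads on genes totalled from 7568934 to 13010896 a sample, and levels are given as CPM, a gene's count scaled to this total. Of the markers fixed for this line, VIM (at least 1896 CPM), CD44, KRT8, KRT18, AXL and EGFR were abundant in all 8 samples. PGR had 0 counts, ESR1 3 to 11 counts and ERBB2 at least 52.7 CPM, and the leukocyte genes PTPRC and CD3E and the endothelial gene CDH5 had 0 to 3 counts. The fourth marker of other cells, the endothelial gene PECAM1, was at 2.38 to 4.04 CPM in the DMSO and Ponatinib samples and at 20.1 to 40.1 CPM in the shRNA samples. The targeted genes followed the labels, with ABL1 at 186 CPM in shCtrl, 72.6 with ABL1 shRNA and 111 with both, and ABL2 at 231 CPM in shCtrl, 94.5 with ABL2 shRNA and 149 with both. The headers inside 2 count files, labelled shCtrl and ABL1 shRNA, name each other's condition, while the ABL1 levels go with the labels. Fold changes and ratios were taken only within the drug set and within the shRNA set, since 68 genes had 0 counts in all shRNA samples but 100 or more in each sample of the drug set.

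As background, ERK phosphorylates the ternary complex factors ELK1, ELK3 and ELK4, which sit with serum response factor (SRF) on CArG boxes and ETS sites in the promoters of many immediate early genes, while CREB acts through the cAMP response element. EGR proteins are zinc finger transcription factors that bind GC-rich sites and are held in check by the corepressors NAB1 and NAB2. NR4A proteins are orphan nuclear receptors that bind DNA as monomers, dimers or, for NR4A1 and NR4A2, with RXR. The IER proteins are small and unlike these, IER3 being a regulator of apoptosis and a substrate of ERK, IER5 an activator of the heat shock factor HSF1, and IER2 a nuclear protein linked to cell motility.

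RefSeq promoter windows were at hand for 7 of the 10 genes (10 windows, as EGR2 has 3 starts and NR4A1 has 2; EGR3, NR4A2 and IER3 were not covered). The 250 bases before each start were searched on both strands for the CArG box, the ETS site CCGGAA, the cAMP response element TGACGTCA and its core TGACG (which lies within it), the EGR site GCGNGGGCG, the AP-1 site TGANTCA, the NR4A element (NBRE) AAAGGTCA and the TATA letters TATAAA. The sequences below show where these letters lie in the gene that fell most with Ponatinib (EGR1), its paralog EGR2, 2 IER genes that fell and the NR4A gene with most matches, in capitals where any of these motifs matched, leaving out bases annotated as a UTR of any gene.
EGR1, GRCh38.p14, plus strand, chr5:138465229-138465478: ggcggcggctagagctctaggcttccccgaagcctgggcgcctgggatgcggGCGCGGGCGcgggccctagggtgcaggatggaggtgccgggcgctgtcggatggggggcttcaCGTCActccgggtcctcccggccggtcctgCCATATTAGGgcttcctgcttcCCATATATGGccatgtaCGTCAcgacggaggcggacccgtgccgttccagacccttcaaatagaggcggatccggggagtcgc
EGR2 (the most downstream start), GRCh38.p14, minus strand, chr10:62816374-62816616: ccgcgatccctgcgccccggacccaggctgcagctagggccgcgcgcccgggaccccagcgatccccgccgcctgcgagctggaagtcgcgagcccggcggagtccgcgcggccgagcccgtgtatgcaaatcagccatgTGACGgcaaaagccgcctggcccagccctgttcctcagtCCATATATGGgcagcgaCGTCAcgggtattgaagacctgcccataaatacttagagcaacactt
IER2, GRCh38.p14, plus strand, chr19:13150384-13150410: cTTCCGGtgcacatgcccccgcccctt
IER5, GRCh38.p14, plus strand, chr1:181088450-181088699: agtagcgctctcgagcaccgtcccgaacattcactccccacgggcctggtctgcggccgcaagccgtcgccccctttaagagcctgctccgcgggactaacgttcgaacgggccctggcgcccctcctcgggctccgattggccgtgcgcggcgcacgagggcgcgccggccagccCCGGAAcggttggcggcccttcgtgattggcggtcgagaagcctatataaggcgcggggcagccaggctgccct
NR4A3, GRCh38.p14, plus strand, chr9:99821635-99821854: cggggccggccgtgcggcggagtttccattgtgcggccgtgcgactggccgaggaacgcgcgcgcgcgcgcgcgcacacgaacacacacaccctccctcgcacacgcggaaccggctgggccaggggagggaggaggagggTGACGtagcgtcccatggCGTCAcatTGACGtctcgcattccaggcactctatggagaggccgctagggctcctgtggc

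EGR1 held 2 CArG boxes, 105 to 96 and 83 to 74 bases before its start, between 2 cAMP response cores at 135 to 131 and 66 to 62. EGR2 held 1 CArG box, 71 to 62 bases before its most downstream start, also between 2 cores. A CArG box was present in 1.16% of all 35116 RefSeq windows of this length. NR4A3 held 4 cores, of which the one nearest the start lies outside the bases shown, and no CArG box, and the core was present in 21.2% of all windows. In all, 5 of the 7 genes held the core, in 5 of their 10 windows. IER2 held it 140 to 136 bases before its start, outside the bases shown, and EGR4 at 177 to 173 and 109 to 105. IER2, IER5 and the most upstream start of NR4A1 held the ETS site, present in 14.5% of all windows. EGR1 also held the EGR site (8.41% of all windows). The 10 windows were 53.2% to 78% GC, most of them above the median of 58% over all windows, and the shares were not matched for GC. The full cAMP response element, the AP-1 site, the NBRE and the TATA letters matched in none of the 10 windows, which says only that these letters are not there.

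**Figure D1:**
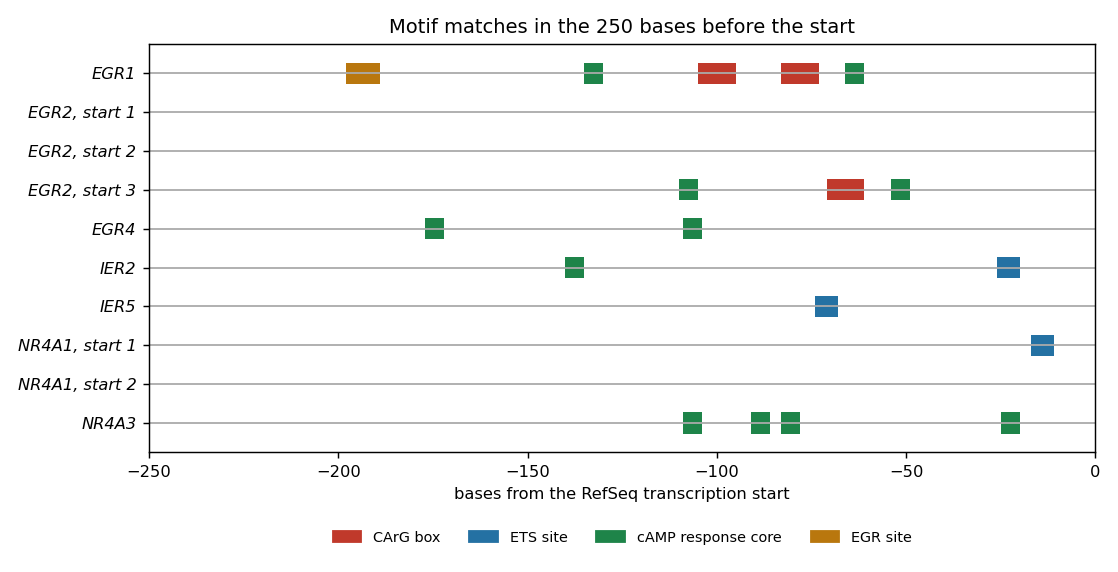
Motif matches in the 250 bases before the RefSeq transcription start of 7 genes (x axis, bases from the start; 1 line per start site, starts of a gene ordered from the most upstream). The CArG boxes of EGR1 and of the third EGR2 start lie between cAMP response cores, and NR4A3 has 4 cores.

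In the DMSO samples IER3 was the most abundant of the 10 mRNAs per length, at 202 CPM per kilobase of exon (mean, n = 2). IER5 followed at 30.3, IER2 at 18.5 and EGR1 at 4.82 CPM per kilobase. NR4A2 was at 0.969 and NR4A1, NR4A3 and EGR3 were at 0.218, 0.169 and 0.152 CPM per kilobase, and the samples of these last 3 genes overlapped. EGR2 was lowest of the detected genes at 0.0637 CPM per kilobase, from 2 and 3 counts. EGR4 had 0 counts in all 8 samples, which allows up to 0.396 CPM in the shallowest library and up to 0.231 CPM in the deepest (3 counts each, counting error only). In the Ponatinib samples the order was the same for the IER genes, at 83.7, 18.3 and 9.09 CPM per kilobase, but NR4A2 at 1.69 stood above EGR1 at 1.02.

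With 1 µmol/L Ponatinib for 6 h, EGR1 and all 3 IER genes fell and the NR4A genes did not fall. Of the 10 genes, 7 had enough counts to be tested, with no value under 1.04 CPM in any of the 4 samples. EGR1, IER2, IER3 and IER5 fell and NR4A1 and NR4A2 rose (edgeR's quasi-likelihood test, Benjamini-Hochberg adjusted p under 0.05), against 15.7% of all 16031 genes tested that fell and 15% that rose. By the rule of the study's methods (more than 2-fold, with a raw p below 0.05), 4 of 7 changed (5.48% of all genes). EGR1, IER2 and IER3 fell (2.29% of all genes) and NR4A1 rose (3.19%). The median log2 fold change was -0.77 over the 7 genes and -0.0047 over all genes. In RNA from a whole culture, fewer cells with an mRNA and less of it per cell cannot be told apart.

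**Figure D2:**
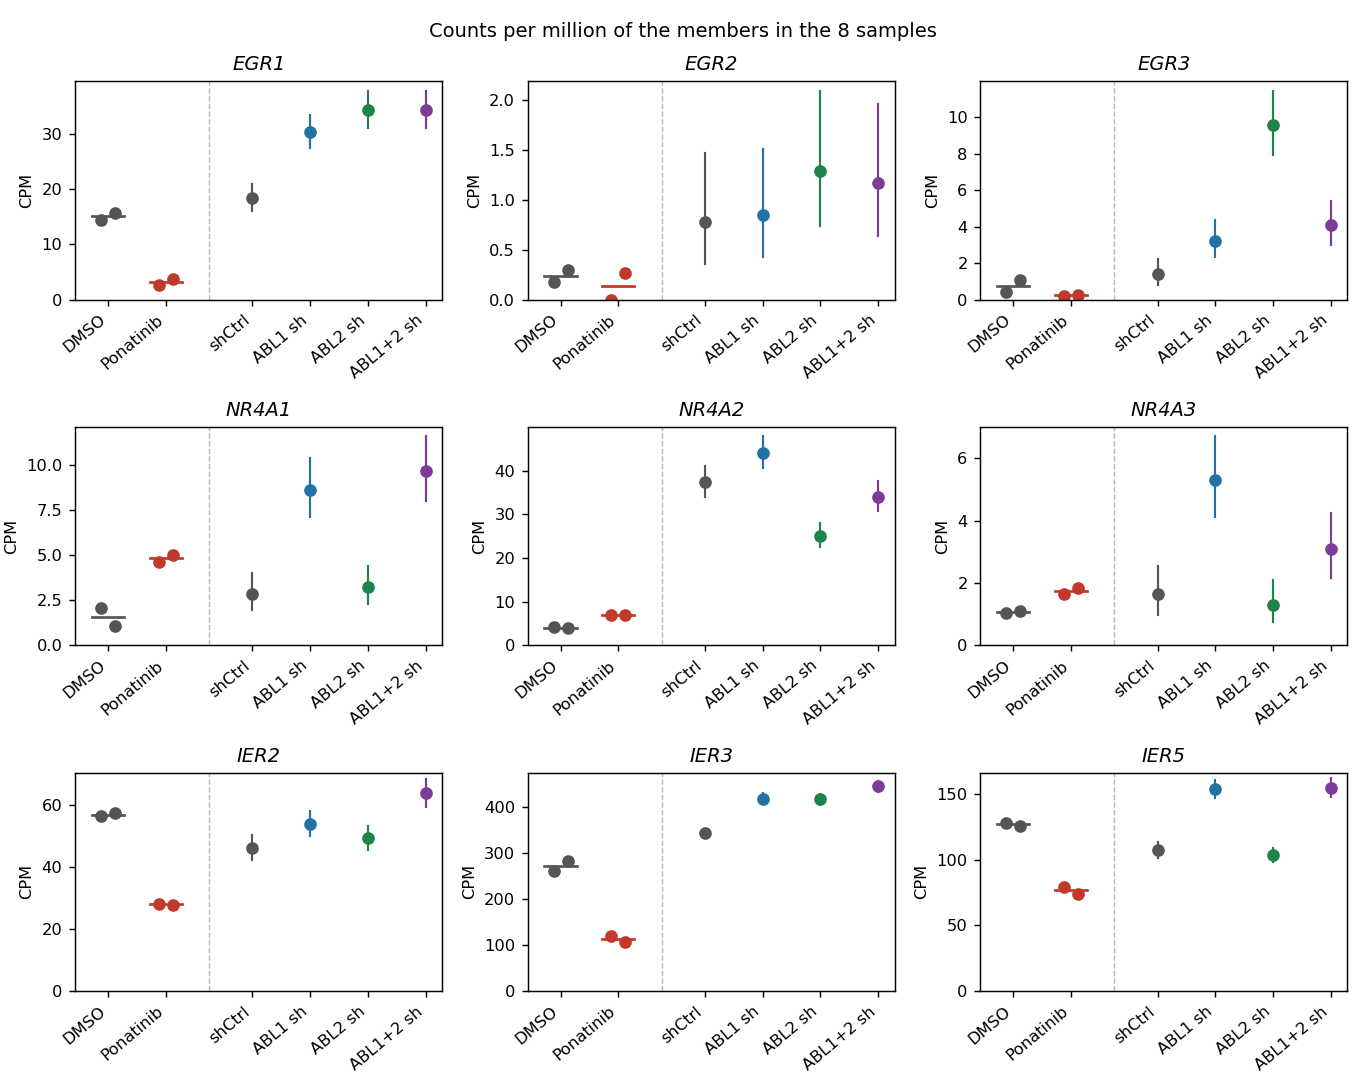
CPM (y axis, from 0, scaled per gene) of the 9 detected genes in each sample. DMSO and Ponatinib show 2 samples with their mean as a bar, and the shRNA groups show 1 sample with its exact 95% interval for counting error. The Ponatinib samples lie below both DMSO samples for EGR1, IER2, IER3 and IER5 and above them for NR4A1, NR4A2 and NR4A3.

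EGR1, a transcription factor of the growth factor response on chromosome 5 (138465479 to 138469303, GRCh38, plus strand), was at 14.5 and 15.7 CPM in the DMSO samples and at 2.69 and 3.70 CPM with Ponatinib. The groups did not overlap. The log2 fold change, -2.31 (standard error 0.19, 95% interval -2.72 to -1.90, edgeR adjusted p = 3.4e-07), left 0.201 of the DMSO level. Without any 1 of the 4 samples it ran from -2.53 to -2.06. Its paralogs were too low to be tested. EGR3 had 5 and 11 counts in DMSO and 2 and 2 with Ponatinib, and EGR2 had 2 and 3 counts in DMSO and 0 and 2 with Ponatinib. Without the filter on low counts, the log2 fold change of EGR3 was -1.74 (95% interval -3.24 to -0.23, edgeR adjusted p = 0.12) and that of EGR2 was -1.03 (95% interval -3.88 to 1.83, edgeR adjusted p = 0.73).

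NR4A1 (NUR77), on chromosome 12 from 52022832 to 52059507, was at 2.09 and 1.09 CPM in DMSO and at 4.61 and 5.02 CPM with Ponatinib. Both Ponatinib samples lay above both DMSO samples, which differed most among the tested members, with 24 and 11 counts. On the log2 scale the difference was 1.51 (standard error 0.30, 95% interval 0.88 to 2.15, edgeR adjusted p = 0.0013), and it was 1.15 without DMSO replicate 2 and 2.07 without DMSO replicate 1. NR4A2 (NURR1), on chromosome 2 from 156324437 to 156342348, was at 4.08 and 3.88 CPM in DMSO and at 7.02 and 6.87 CPM with Ponatinib. On the log2 scale it rose by 0.76 (standard error 0.20, edgeR adjusted p = 0.0099). This call was lost with DESeq2's Wald test (DESeq2 adjusted p = 0.18) and without DMSO replicate 2 (edgeR adjusted p = 0.055). NR4A3 (NOR1), on chromosome 9 from 99821855 to 99866891, was at 1.04 and 1.09 CPM in DMSO and at 1.63 and 1.85 CPM with Ponatinib. The groups did not overlap, but with 11 to 17 counts a sample its log2 fold change of 0.64 did not pass the test (95% interval -0.14 to 1.43, edgeR adjusted p = 0.20).

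IER3 (IEX-1), on chromosome 6 from 30743199 to 30744548, was at 262 and 282 CPM in DMSO and at 119.6 and 106 CPM with Ponatinib. On the log2 scale it fell by 1.31 (standard error 0.07, edgeR adjusted p = 3.9e-09), and the groups did not overlap. IER2, on chromosome 19 from 13150411 to 13154911, went from 56.4 and 57.5 CPM to 28.3 and 27.7 CPM, or -1.07 on the log2 scale (standard error 0.08, edgeR adjusted p = 2.3e-07). IER5, on chromosome 1 from 181088700 to 181092900, went from 128 and 126 CPM to 79.4 and 74.1 CPM, or -0.77 on the log2 scale (standard error 0.07, edgeR adjusted p = 6.7e-07), and was the one IER gene within 2-fold. Their 95% intervals set the 3 apart in part, since that of IER5, -0.91 to -0.62, did not meet that of IER3, -1.46 to -1.15, while that of IER2, -1.25 to -0.89, met both. The 3 IER genes together summed to 447 and 466 CPM in DMSO and to 227 and 208 CPM with Ponatinib, whereas the 3 NR4A genes summed to 7.21 and 6.07 and then to 13.3 and 13.7 CPM.

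**Figure D3:**
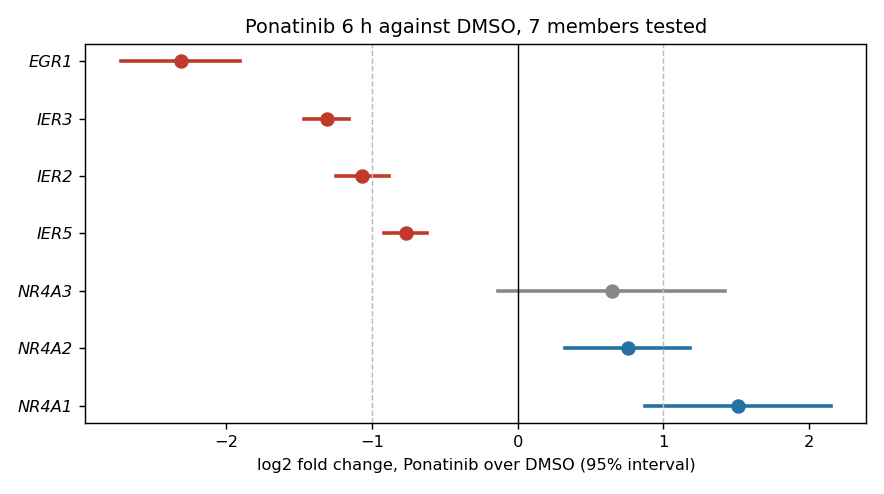
Log2 fold change of Ponatinib over DMSO (x axis; points, with 95% intervals as lines, edgeR; dashed lines mark 2-fold) for the 7 genes tested. EGR1, IER3, IER2 and IER5 (red) fell, NR4A2 and NR4A1 (blue) rose, and the interval of NR4A3 (grey), -0.14 to 1.43, includes 0.

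A list of 54 other immediate early genes moved mostly down with Ponatinib. Of the 50 tested, 31 fell, 10 rose and 9 did not pass the test, with a median log2 fold change of -0.77. Over all 16031 genes tested, 15.7% fell and 15% rose. SPRY4, an inhibitor of RAS to ERK signaling, fell by 3.47 on the log2 scale, from 285 and 298 CPM to 27.8 and 26.4 CPM (edgeR adjusted p = 5.8e-13). DUSP5, a nuclear phosphatase of ERK, fell by 3.08 (edgeR adjusted p = 9.4e-13). The matricellular gene CCN2 fell by 2.92 (edgeR adjusted p = 4.8e-12) and the small MAF factor MAFF fell by 2.81 (edgeR adjusted p = 8.1e-11). EGR1 thus stood among the larger falls of the list. The largest rise in the list was that of the stress-response factor ATF3, from 5.73 and 6.17 CPM to 13.0 and 12.7 CPM, or 1.07 on the log2 scale (edgeR adjusted p = 0.00014). RGS2, BTG1 and JUND rose by 0.77, 0.74 and 0.73 (edgeR adjusted p = 0.0074, 5.3e-07 and 2.0e-06). The rise of NR4A1, at 1.51, was above all of these, but its 95% interval, 0.88 to 2.15, includes the value of ATF3.

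**Figure D4:**
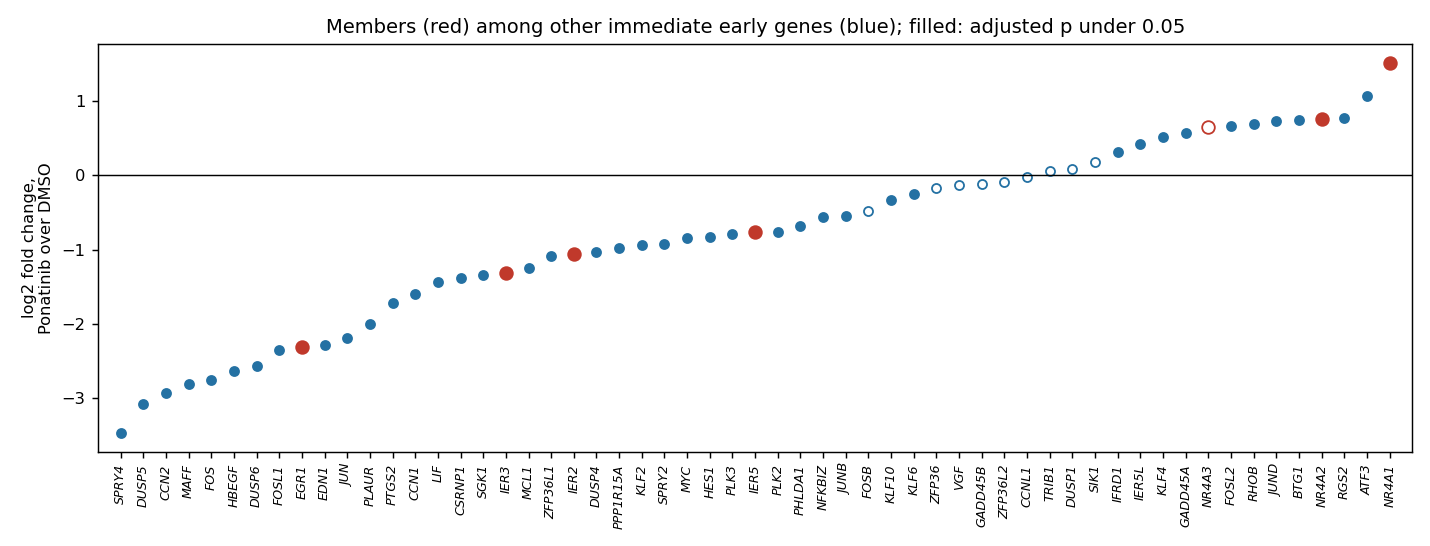
Log2 fold change of Ponatinib over DMSO (y axis) for the 7 tested members (red) and 50 other immediate early genes (blue), in rank order along the x axis; filled points passed an edgeR adjusted p under 0.05. EGR1 lies at -2.31 among the larger falls, and NR4A1 is the highest point at 1.51.

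Among 18 kinases and transcription factors that act upstream, 5 fell, 4 rose and 9 did not pass the test (median log2 fold change -0.06). Of all 16031 genes tested, 15.7% fell and 15% rose. ELK3, a ternary complex factor, fell from 210 and 196 CPM to 95.1 and 95.9 CPM, or -1.13 on the log2 scale (edgeR adjusted p = 7.0e-09). SRF fell by 0.51 (edgeR adjusted p = 6.9e-05), MAP2K1 (MEK1) by 0.29 (edgeR adjusted p = 0.0047) and ELK1 by 0.27 (edgeR adjusted p = 0.012). RPS6KA2 and RPS6KA5, kinases that ERK activates, rose by 1.21 and 0.92 (edgeR adjusted p = 4.7e-06 and 1.6e-05), as did the SRF coactivator MRTFB by 0.47 (edgeR adjusted p = 7.0e-04) and MAPK3 (ERK1) by 0.27 (edgeR adjusted p = 0.032). The number that fell ran from 2 to 5 with 1 sample left out, and was 2 without DMSO replicate 2 and 3 without DMSO replicate 1 or Ponatinib replicate 1.

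Of 10 genes that hold EGR proteins in check or are known EGR targets, 9 were tested, and 3 fell (median log2 fold change -0.15). Among all genes tested, 15.7% fell and 15% rose. Tissue factor (F3) fell by 1.63 (edgeR adjusted p = 2.7e-10), the growth factor gene PDGFA by 1.24 (edgeR adjusted p = 2.3e-06) and the adhesion receptor gene CD44 by 0.41 (edgeR adjusted p = 8.1e-05). The corepressor genes NAB1 and NAB2 were at -0.06 and -0.15 on the log2 scale (edgeR adjusted p = 0.67 and 0.29). Of the RXR genes, RXRA rose by 0.47 (edgeR adjusted p = 0.00028) and RXRB was at 0.05 (edgeR adjusted p = 0.70), while RXRG was too low to be tested. Of 9 genes of the heat shock response, HSF1 and genes it controls, 8 fell, against 15.7% of all genes tested. These 8 all fell by less than 2-fold (median log2 fold change of the list -0.31). They were led by the chaperone gene HSPA8 at -0.69 (edgeR adjusted p = 2.8e-07), followed by BAG3 at -0.55, HSPH1 at -0.44 and HSF1 itself at -0.36 (edgeR adjusted p = 1.4e-05, 6.8e-05 and 0.0011). HSPB1 did not pass, at -0.0046 (edgeR adjusted p = 0.98). The number that fell was 5 without DMSO replicate 1 and 5 without DMSO replicate 2.

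In the ABL knockdowns EGR3, NR4A1 and NR4A3 were the genes past 2-fold, each above shCtrl where it passed. NR4A1 was past 2-fold and higher with Ponatinib too. With 1 library per condition these values have no replicate check, and their intervals cover counting error only. The 3 comparisons share the shCtrl library, so a value above it in all 3 cannot be told apart from a low value of shCtrl itself. The shCtrl library stood furthest apart, with 445 genes over 2-fold from all 3 other shRNA libraries, against 185 for ABL1 shRNA, 241 for ABL2 shRNA and 107 for both. With ABL1 shRNA, 3 of the 9 genes with at least 10 counts in 1 of the 2 libraries were past 2-fold and higher (EGR3, NR4A1 and NR4A3), against 5.05% of 15832 genes (8.87% past 2-fold in either direction). With ABL2 shRNA 1 of 9 was (EGR3), against 5.18% of 15769 genes (7.98% in either direction), and with both shRNAs 2 of 9 were (EGR3 and NR4A1), against 4.77% of 15733 genes (7.82% in either direction). No member was past 2-fold and lower, where the shares of all genes were 3.82%, 2.8% and 3.06%. The median log2 ratio of the 9 genes was 0.52, 0.18 and 0.59, and over all genes 0.03, 0.04 and 0.05, for ABL1, ABL2 and both.

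EGR1 was at 18.4 CPM in shCtrl (exact binomial 95% interval 16.0 to 21.1), and at 30.4, 34.4 and 34.5 CPM with ABL1 shRNA, ABL2 shRNA and both. The ratios to shCtrl were 1.65 (95% counting interval 1.40 to 1.96), 1.87 (1.58 to 2.21) and 1.87 (1.58 to 2.22), and each interval lay above 1. The 3 knockdown libraries were close to each other, with ABL1 shRNA at 0.884 of ABL2 shRNA (0.769 to 1.02). EGR3 was at 1.38 CPM in shCtrl, and at 3.23, 9.55 and 4.08 CPM with ABL1, ABL2 and both shRNAs, from 16, 42, 119 and 49 counts. It was highest with ABL2 shRNA alone, at 6.93 times shCtrl (4.10 to 12.5), and the double knockdown was at 0.427 of that library, or -1.23 on the log2 scale (-1.74 to -0.74). ABL2 mRNA itself was 1.58 times as high with both shRNAs as with ABL2 shRNA alone (1.47 to 1.70). The part of this in the EGR3 values was not tested. EGR2 had 9, 11, 16 and 14 counts in shCtrl, ABL1, ABL2 and both, and its 3 counting intervals included a ratio of 1. PECAM1 had the same order of libraries as EGR3 and EGR2 and, like EGR1, was lowest in shCtrl, at 20.1 CPM in shCtrl and 30.6, 40.1 and 32.7 CPM with ABL1, ABL2 and both shRNAs, while the endothelial gene CDH5 had at most 3 counts in any library. The counting intervals of ABL1 shRNA and both shRNAs overlapped for PECAM1 (27.7 to 33.7 and 29.6 to 36.1 CPM) and for EGR3 (2.33 to 4.36 and 3.02 to 5.39 CPM).

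NR4A1 and NR4A3 were higher with ABL1 shRNA and not with ABL2 shRNA alone. NR4A1 was at 2.84 CPM in shCtrl, and at 8.61, 3.21 and 9.66 CPM with ABL1, ABL2 and both shRNAs. The ratios to shCtrl were 3.03 (95% counting interval 2.04 to 4.61), 1.13 (0.695 to 1.85) and 3.40 (2.29 to 5.17). Set against ABL2 shRNA, without the shCtrl library, NR4A1 was 2.68 times as high with ABL1 shRNA (1.85 to 3.95) and 3.01 times as high with both (2.08 to 4.42). NR4A3 was at 1.64 CPM in shCtrl, and at 5.30, 1.28 and 3.08 CPM with ABL1, ABL2 and both shRNAs, and stood 4.13 times as high with ABL1 shRNA as with ABL2 shRNA (2.37 to 7.62). NR4A2 was also highest with ABL1 shRNA, at 44.04 CPM, and lowest with ABL2 shRNA, at 25.1 CPM, with 37.4 CPM in shCtrl and 34.0 CPM with both. Its ratio to shCtrl was 0.672 with ABL2 shRNA (0.579 to 0.779), the one member whose counting interval lay below 1 in any knockdown. Of the 6 markers of the line, the keratin genes KRT8 and KRT18 had the same order of libraries as NR4A3, VIM and AXL had that of NR4A2, and CD44 and EGFR had neither. Some steps of these orders lie within counting error. The intervals of shCtrl and ABL1 shRNA overlapped for VIM (2269 to 2324 and 2277 to 2329 CPM). Those of shCtrl and both shRNAs overlapped for NR4A2 (33.9 to 41.1 and 30.8 to 37.5 CPM). KRT8 was at 466, 804, 297 and 638 CPM and KRT18 at 224, 310, 146 and 275 CPM in shCtrl, ABL1, ABL2 and both. In the same libraries VIM was at 2297, 2303, 1896 and 2256 CPM and AXL at 587, 612, 336 and 552 CPM. CD44 was at 479.8, 629.7, 495 and 572 CPM, and EGFR, lowest with ABL1 shRNA, was at 393.1, 267.3, 391.9 and 285.3 CPM. The part of these markers in the NR4A values was not tested.

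The IER genes stayed within 2-fold of shCtrl in all 3 knockdowns. IER3 was at 343 CPM in shCtrl, and at 419, 417 and 446 CPM with ABL1, ABL2 and both shRNAs, with ratios of 1.22, 1.22 and 1.30. IER5 was at 107 CPM in shCtrl and 104 with ABL2 shRNA, and at 154 with ABL1 shRNA and 155 with both, so that ABL1 shRNA stood 1.49 times as high as ABL2 shRNA (95% counting interval 1.38 to 1.59). IER2 ran from 46.2 CPM in shCtrl to 53.9, 49.3 and 63.8 CPM with ABL1, ABL2 and both, and its interval included 1 with ABL2 shRNA alone. Of the 54 other immediate early genes, 2, 4 and 5 were past 2-fold and higher, and 3, 2 and 2 past 2-fold and lower, with ABL1 shRNA, ABL2 shRNA and both, out of 51, 50 and 51 with enough counts. The shares over all genes, in the same order, were 5.05%, 5.18% and 4.77% higher, and 3.82%, 2.8% and 3.06% lower.

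**Figure D5:**
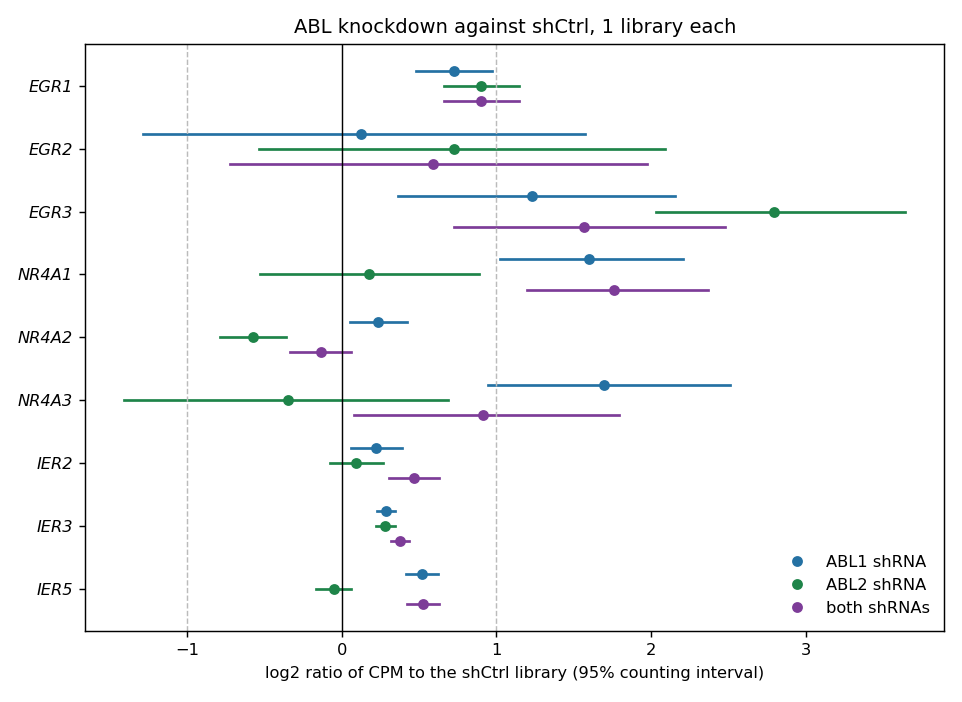
Log2 ratio of CPM to the shCtrl library (x axis; points, with 95% intervals for counting error as lines; dashed lines mark 2-fold) for 9 genes with ABL1 shRNA (blue), ABL2 shRNA (green) and both (purple). EGR3 is furthest from shCtrl with ABL2 shRNA, at 2.79, and NR4A1 and NR4A3 lie past 1.5 with ABL1 shRNA.

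Side by side, EGR1 had a log2 difference of -2.31 with Ponatinib and of 0.72, 0.90 and 0.90 with ABL1, ABL2 and both shRNAs, and IER3 one of -1.31 and of 0.29, 0.28 and 0.38. NR4A1 had one of 1.51 with Ponatinib and of 1.60, 0.18 and 1.76 in the knockdowns. Over the 4 log2 differences and 10420 genes with a mean of at least 100 counts, the genes nearest to EGR1 were DUSP6, ANGPTL4 and EPHA2, with root mean square differences of 0.22, 0.23 and 0.26 on the log2 scale. Those nearest to NR4A1 were HR, AVPI1 and DMBT1, at 0.06, 0.33 and 0.48. NR4A1's own 95% intervals, 0.88 to 2.15 with Ponatinib and 1.03 to 2.21 with ABL1 shRNA (counting error only), are wider than these distances. Those of EGR1, -2.72 to -1.90 and 0.48 to 0.97 in the same order, are wider than its distances too. NR4A1 itself, with 11 to 116 counts a sample, has a mean below the 100 counts asked of the genes searched. The knockdown differences also share the shCtrl library. The genes nearest to IER2 were DUSP7, ARID3B and UBASH3B, at 0.08, 0.11 and 0.11. IER2's intervals, -1.25 to -0.89 with Ponatinib and 0.06 to 0.39 with ABL1 shRNA, are wider than these distances as well.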

How the data were processed

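RNA-seq was made from LM2 cells with the NEBNext Ultra kit. The authors mapped reads to hg38 with Bowtie/TopHat and, per the submitters' processing notes, counted them with HTSeq 0.6.0. They deposited raw counts per gene, 1 file a sample, without normalization. The annotation and strand setting are not given in the sources used here, so reads shared with overlapping noncoding genes cannot be told apart (NR4A3 lies under STX17-DT, and parts of EGR2, EGR3, NR4A1, IER2 and IER3 lie under others).

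The members and lists were chosen with earlier results of these data known. Counts of the 4 DMSO and Ponatinib samples were tested in edgeR 4.0.16 (R 4.3.3; quasi-likelihood, TMM, filterByExpr, prior count 0.125, Benjamini-Hochberg adjustment over 16031 genes). Standard errors are the log2 fold change over the root of F. A call is an adjusted p under 0.05. Knockdowns (1 sample each) got no test, only CPM ratios with exact 95% binomial intervals. A knockdown call is a fold over 2, among genes with at least 10 counts in 1 of the 2 libraries. PCR reads are not independent molecules, so intervals cover counting error only. Summary rows of the counter (no feature, 9.48% to 9.90%; ambiguous, 6.12% to 6.32%; shRNA files only) were left out of totals. Positions and lengths are from GENCODE v44 on GRCh38 and promoters from RefSeq (GRCh38.p14). All 10 members are named, and of other lists up to 4 called genes in each direction with the largest change, of which 1 is not reported here. For EGR1, NR4A1 and IER2 the 3 nearest genes are named. KRT8, KRT18 and PECAM1 were singled out from the marker lists, and the side-by-side values of IER3 chosen, after the values were seen. Of the steps, only the edgeR and DESeq2 fits were tested on simulated counts. Alternatives were other scalings, filters, DESeq2 1.42.0, the replicate block, all 8 samples, left-out samples, 0.5 added counts and a fold of 1.5.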

Additional observations from a re-analysis of the deposited data

How the results depend on the processing

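With DESeq2's Wald test, 1 member rose in place of 2, 3 upstream genes fell in place of 5, and 1409 and 1167 of all genes fell and rose in place of 2511 and 2406. With 1 sample left out (the lone sample of a group is then assumed to vary like the other group), 1 to 2 members rose, 2 to 5 upstream genes and 5 to 8 heat shock genes fell, and 1445 to 2935 of all genes fell and 1355 to 2809 rose, the lowest counts being without DMSO replicate 1 or 2. EGR1, IER2, IER3 and IER5 fell in all 11 alternatives. A fold of 1.5 in place of 2 gave 3 members with ABL2 shRNA and 5 with both shRNAs, in place of 1 and 2. NR4A2 had a log2 fold change of 0.75 with DESeq2 and 0.72 without DMSO replicate 2, and passed in neither. The cause was not tested. The deviations of same-numbered samples had r = -0.020 over 9421 genes (genes are no replicates). Counting noise also weakens such an r, so it cannot show whether same-numbered samples were paired. With the replicate block 4 members fell, 2 rose, 4 passed the fold rule, and EGR1 was at -2.30. The block also gave 2561 and 2423 of all genes, 31 and 10 other immediate early genes, 4 and 4 upstream genes, 3 EGR-related genes that fell, 1 RXR gene that rose and 8 heat shock genes that fell, and it changed no call of a member. Depth limits EGR2, EGR3 and EGR4, and NR4A3 with 11 to 17 counts. The 2 DMSO and 2 Ponatinib samples allow no test of outlying samples.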
